A study of Mus musculus with 4 samples.

Results

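Excitatory neuron nuclei that carried the transcript of a virus expressing SIK3 without exon 13 were set against nuclei of the same library in which that transcript was not seen. The library came from motor cortex (primary area) of C57BL/6N mice, into which AAV8-hSyn-FLAG-SIK3(Ex13del) had been given locally. This is an adeno-associated virus in which the human synapsin promoter drives FLAG-tagged SIK3 mainly in neurons. A nucleus was taken as an excitatory neuron with at least 500 detected genes, under 5% mitochondrial UMIs, and at least 2 UMIs of Slc17a7 (the vesicular glutamate transporter) and Sv2b (a synaptic vesicle protein) together, more than its UMIs of Gad1 and Gad2. UMIs are unique molecular identifiers, each of which stands for a captured RNA molecule. Of 6259 barcodes, with 43655557 UMIs in all, 2600 met this rule. The nuclei were then chosen by their measured vector UMIs. The vector-rich group held the 91 nuclei with 3 or more UMIs of WPRE_pA, the feature for the tail of the vector transcript. The vector-free group held the 1945 nuclei with 0, and 564 nuclei with 1 or 2 were in neither. The wild-type vector library, from mice of the same strain given AAV8-hSyn-FLAG-SIK3(WT), held 124 vector-rich and 2537 vector-free nuclei by the same rule and is the nearest comparison. In the ad lib sleep and sleep deprivation libraries, from C57BL/6N mice with no virus named in the labels, 2640 sleep deprivation nuclei and 4138 ad lib sleep nuclei passed the rule and held 0 vector UMIs. The series has 28619 barcodes in 4 libraries, 1 for each group, and the labels do not say how many animals went into each.

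SIK3 is a salt-inducible kinase that the kinase LKB1 activates and that cAMP-dependent protein kinase restrains by phosphorylation. It phosphorylates class IIa histone deacetylases and the CRTC coactivators of CREB, which keeps them in the cytoplasm and so limits transcription through MEF2 and CREB. The stretch that exon 13 encodes holds a phosphorylation site for cAMP-dependent protein kinase, and mice whose Sik3 transcripts skip that exon sleep more. The series' design text describes the mutant as a gain of function.

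Nuclei of 1 library are not replicates, so no test could be made and no p-value is given. UMIs were summed over the nuclei of each group and scaled to counts per 1000000 UMIs (CPM), leaving out the vector feature, and the ratio is vector-rich over vector-free. Its 95% interval is an exact Poisson interval that covers counting error only. The vector-rich sum was 1203144 UMIs and the vector-free sum 20354577, so 3 counts, the floor that a count of 0 allows, came to 2.49 CPM and 0.147 CPM. Vector-rich nuclei were deeper, with a median of 11316 UMIs and 4412 genes, against 9248 UMIs and 3599 genes in vector-free nuclei. With the vector-free level standardised to the depths of the vector-rich nuclei, 1276 of the 1303 genes counted as higher below were still past 1.5-fold. Of the 1303, 1263 were past it and also still averaged 20 CPM or more. None of the 91 vector-rich barcodes occurred in another library, and the whole library shared 11, 13 and 9 barcodes with the wild-type vector, ad lib sleep and sleep deprivation libraries.

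The group labelled excitatory held its markers in part. Slc17a7 was at 242 CPM in vector-rich nuclei and 239 CPM in vector-free nuclei. Sv2b was at 211 CPM and 438 CPM in the same order, a ratio of 0.482 (0.424 to 0.546), and the sum over 9 excitatory markers was at 2511 CPM in vector-rich nuclei against 3614 CPM in vector-free nuclei, with 1 of the 9 higher. In the wild-type vector library that sum had a ratio of 0.981. Because both genes choose the nuclei, the rule leaves out those in which they are scarce: 47 further nuclei had 10 or more vector UMIs but did not pass it, against 36 that did. Of those 47, 44 had fewer than 2 Slc17a7 and Sv2b UMIs, and 39 had fewer than 2 of both these and Gad1 and Gad2. The vector-rich group is thus a selected share of the nuclei with vector RNA. Summed markers of other neural cells had ratios of 0.998 (astrocytes), 1.09 (oligodendrocyte precursors), 0.896 (oligodendrocytes), 0.811 (inhibitory neurons) and 0.604 (striatal projection neurons).

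The vector feature itself summed to 1286 UMIs in vector-rich nuclei, with a median of 7 and a maximum of 119 per nucleus. Just inside the threshold lay 23 nuclei with exactly 3 vector UMIs, and just outside it 87 nuclei with 2. Sik3, on chromosome 9 at 46012820 to 46224194 (mm10, plus strand), was at 448 CPM in vector-rich nuclei and 199.7 CPM in vector-free nuclei, a ratio of 2.24 (2.05 to 2.46). The wild-type library gave 418 CPM in vector-rich nuclei and 199 CPM in vector-free nuclei, a ratio of 2.10. The reads are 3' tags, so they do not show whether exon 13 is present, and endogenous and vector Sik3 cannot be told apart in this count.

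The transcriptome of vector-rich nuclei stood further from vector-free nuclei with the exon 13 deleted vector than with the wild-type vector. Among 7612 genes that averaged 20 CPM or more over the pair of groups, 1303 were at least 1.5-fold higher (17.1%) and 583 at least 1.5-fold lower (7.66%) in vector-rich nuclei. In the wild-type library the numbers were 368 (5.1%) and 200 (2.77%) of 7214 genes. The gap was wider at larger folds, with 159 genes at least 3-fold higher in the exon 13 deleted library against 2 in the wild-type library, and 26 against 0 at 10-fold. Of the 1303 higher genes, 172 were past the fold the same way in the wild-type library and 76 the opposite way, and 896 were above 1 there. Of the 583 lower genes, 59 were past it the same way and 13 the opposite way, and 374 were below 1 there. Each library is 1 sample, so this difference between vectors has no test. The vector-rich groups were not matched for vector UMIs. Their median was 7 with 36 of 91 nuclei at 10 or more in the exon 13 deleted library, and 5 with 33 of 124 in the wild-type library. The split into higher and lower genes depends on the scaling. Factors by the trimmed mean of M values (TMM) move every log2 ratio by -0.26 and give 606 higher and 1277 lower genes. All 1303 stay above 1, which follows from the size of the shift and says nothing of stability. Ratios near 1 have no settled side.

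**Figure D1:**
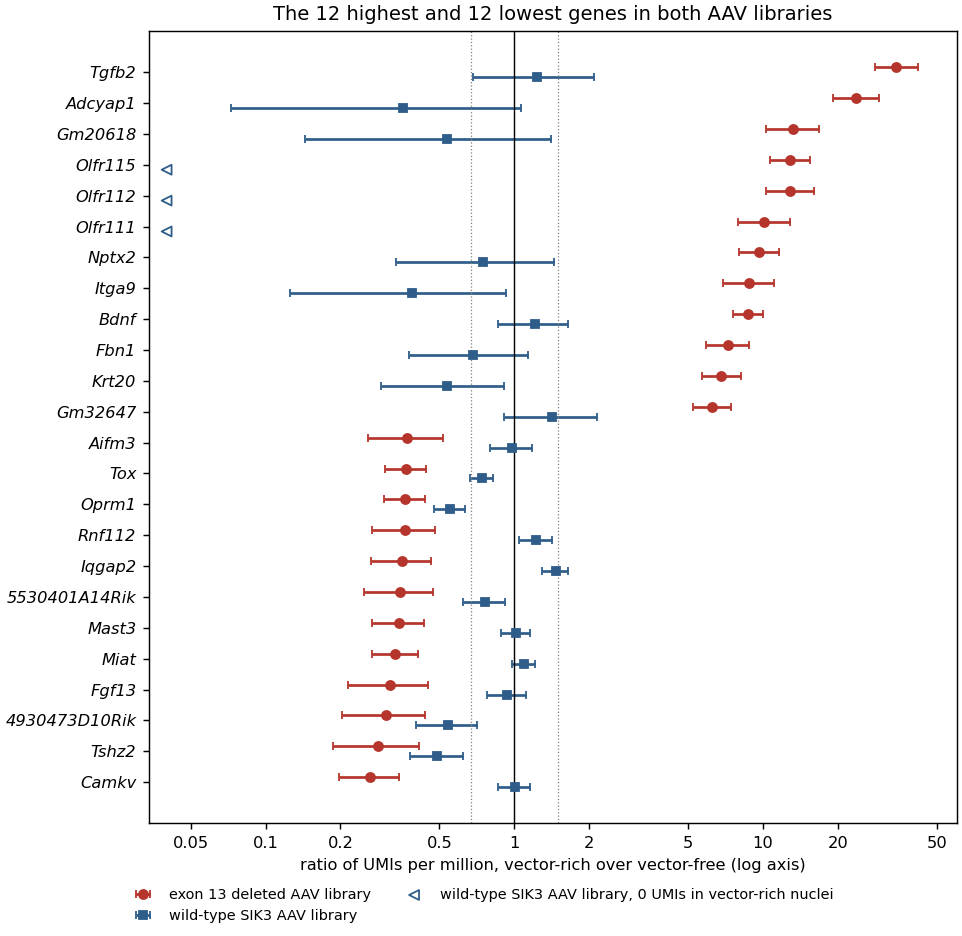
Ratio of CPM, vector-rich over vector-free, for the 12 genes of highest and the 12 of lowest ratio in the exon 13 deleted library (red circles), with the same genes in the wild-type library (blue squares) and exact 95% Poisson intervals on a log axis. Dotted lines mark 1.5-fold, and open triangles at the left edge stand for genes with 0 UMIs in wild-type vector-rich nuclei. All 12 highest genes lie between 6.24 and 34.4 in the exon 13 deleted library and below 1.5 in the wild-type library.

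The 12 genes with the highest ratio, among those averaging 50 CPM or more, included 4 that encode secreted signalling proteins, Tgfb2, Adcyap1, Bdnf and Nptx2. Tgfb2, which encodes a transforming growth factor (chromosome 1, 186622792 to 186705989, minus strand, mm10), was at 255 CPM in vector-rich nuclei and 7.42 CPM in vector-free nuclei, a ratio of 34.4 (28.2 to 42.1). It was seen in 48 of 91 vector-rich nuclei and in 124 of 1945 vector-free nuclei, with 9.12% of its UMIs in the vector-rich nucleus that had most. Adcyap1 (chromosome 17, 93199017 to 93206537, plus strand) encodes the neuropeptide PACAP, whose receptors raise cAMP. It was at 179.5 CPM in vector-rich nuclei and 7.61 CPM in vector-free nuclei, a ratio of 23.6 (19.1 to 29.2), and was seen in 50 and 126 nuclei of these groups. Bdnf, the brain-derived neurotrophic factor (chromosome 2, 109674700 to 109727007, plus strand), was at 263 CPM and 30.2 CPM in the same order, a ratio of 8.73 (7.6 to 10). Nptx2, a secreted pentraxin that gathers AMPA receptors at synapses (chromosome 5, 144545902 to 144557478, plus strand), was at 152 CPM in vector-rich nuclei and 15.8 CPM in vector-free nuclei, a ratio of 9.64 (8 to 11.6). Both were seen in 66 of 91 vector-rich nuclei, against 341 vector-free nuclei for Bdnf and 234 for Nptx2. Free RNA was looked at in 291 nuclei with at least 10 oligodendrocyte marker UMIs and no UMI of Slc17a7, Sv2b, Gad1 or Gad2. There Adcyap1 was seen in 6 nuclei, Bdnf in 9, Nptx2 in 12 and Tgfb2 in 15, at a median depth of 2191 UMIs. Scaled for depth, these nuclei held Tgfb2 at 29.6 CPM, Nptx2 at 17.5 CPM and Adcyap1 at 8.08 CPM, each above its level in vector-free nuclei, and Bdnf at 12.1 CPM, which is below. These nuclei can also express a gene themselves, and Sik3 was at 830 CPM in them, so free RNA and expression cannot be told apart there. The vector-free levels of Tgfb2, Nptx2 and Adcyap1 may thus be background, and their ratios carry that limit.

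With the wild-type vector these 4 genes had ratios between 0.357 and 1.24. Tgfb2 had 10.1 CPM in vector-rich and 8.15 CPM in vector-free nuclei there, and Bdnf had 28.2 CPM and 23.4 CPM. Adcyap1 rested on 3 UMIs in wild-type vector-rich nuclei, a ratio of 0.357 (0.0727 to 1.06), and Nptx2 had a ratio of 0.745 (0.336 to 1.44). In the libraries without a virus, excitatory nuclei held Tgfb2 at 7.24 CPM after sleep deprivation and 7.02 CPM after ad lib sleep, and Adcyap1 at 5.44 CPM and 7.22 CPM, levels close to those of vector-free nuclei.

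Among the other genes of the 12, several build matrix, adhesion or the cytoskeleton. Fbn1, which encodes the matrix protein fibrillin, had a ratio of 7.2 (5.91 to 8.75), Itga9, an integrin subunit, of 8.77 (6.93 to 11.0), and Krt20, an intermediate filament keratin, of 6.81 (5.66 to 8.16). Their levels in vector-rich nuclei were 124, 94.8 and 140.5 CPM, against 17.2, 10.8 and 20.6 CPM in vector-free nuclei. Itga9 was at 14.8 CPM in the oligodendrocyte-marker nuclei, above its vector-free level. Itga9 (0.389, 0.125 to 0.922) and Krt20 (0.536, 0.291 to 0.909) lay below 1 in the wild-type library. Olfactory receptor genes of 1 cluster on chromosome 17, between 37508030 and 37627109, formed another set. Olfr115 was at 177 CPM in vector-rich and 13.8 CPM in vector-free nuclei, Olfr112 at 122 and 9.53 CPM, and Olfr111 at 94.8 and 9.38 CPM. They were seen in 34, 31 and 31 of 91 vector-rich nuclei, and in 77, 65 and 67 vector-free nuclei. Related receptor genes may share reads, so the 3 are not separate evidence. All 3 had 0 UMIs in the 124 vector-rich nuclei of the wild-type library, where 0 counts allow up to 2.01 CPM. The long noncoding RNAs Gm20618 (99.7 CPM against 7.57 CPM, a ratio of 13.2) and Gm32647 (143 CPM against 22.9 CPM, 6.24) complete the 12. A single vector-rich nucleus held 39.5% of the Gm32647 UMIs, and without it the ratio was 3.84.

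The promoters of 3 of the secreted genes, Tgfb2, Adcyap1 and Bdnf, are shown because each holds the core of the cAMP response element. Nptx2 is not among them. CREB, whose CRTC coactivators SIK3 restrains, binds that element, but a part of CREB in these levels was not tested. The full element TGACGTCA and its core TGACG were searched on both strands (the core as TGACG or CGTCA) in the 250 bases before each transcript start listed by RefSeq (GRCm38.p6), and each full element also holds the core on each strand. Capitals mark the full element where present and otherwise the core. Of the 12 highest genes 9 were in the table, and 4 of these (Tgfb2, Adcyap1, Itga9 and Bdnf) held the core, 0 the full element. Of the 12 lowest 9 were in the table and 0 held the core. Of all 27025 genes listed there, 19.8% held the core and 1.77% the full element. In lists described below, 12 of 16 rapid immediate early genes held the core, as did 14 of 17 cAMP and CREB targets and 9 of 16 delayed genes. Genes with the core lay on both sides: Npas4 and Atf3 were higher in vector-rich nuclei, and Nr4a2 and Pcsk1 lower. Counted by promoter, 5 of 16 (31.3%) of the 12 highest genes held the core, against 17.8% of all 32851. Scg2, from the delayed activity-regulated list, was added after its values were seen because it carries the full element. The window of Adcyap1 is that of the first of its 2 listed starts, and that of Bdnf is the third of 7.
Tgfb2, chr1:186705990-186706239 (minus strand): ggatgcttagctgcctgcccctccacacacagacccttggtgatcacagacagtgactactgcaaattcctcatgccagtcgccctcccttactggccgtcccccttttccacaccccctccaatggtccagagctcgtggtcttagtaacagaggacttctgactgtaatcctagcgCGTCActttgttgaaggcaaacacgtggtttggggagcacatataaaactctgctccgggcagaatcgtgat
Adcyap1, chr17:93198767-93199016 (plus strand): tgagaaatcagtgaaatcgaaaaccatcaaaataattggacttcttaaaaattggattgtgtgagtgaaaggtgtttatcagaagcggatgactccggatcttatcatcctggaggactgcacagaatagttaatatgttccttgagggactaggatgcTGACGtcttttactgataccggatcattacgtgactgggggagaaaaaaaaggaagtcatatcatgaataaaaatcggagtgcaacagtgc
Bdnf, chr2:109692186-109692435 (plus strand): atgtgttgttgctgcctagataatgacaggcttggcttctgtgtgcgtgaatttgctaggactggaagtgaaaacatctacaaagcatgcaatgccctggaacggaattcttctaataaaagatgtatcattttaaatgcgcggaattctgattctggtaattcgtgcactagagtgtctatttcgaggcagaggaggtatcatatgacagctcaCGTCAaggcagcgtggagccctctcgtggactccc
Scg2, chr1:79440027-79440276 (minus strand): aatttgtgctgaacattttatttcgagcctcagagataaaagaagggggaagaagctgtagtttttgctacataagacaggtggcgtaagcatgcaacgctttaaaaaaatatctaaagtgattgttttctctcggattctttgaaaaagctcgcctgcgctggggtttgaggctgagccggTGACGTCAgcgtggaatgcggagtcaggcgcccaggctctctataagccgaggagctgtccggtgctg
The capitals lie 72, 91, 35 and 68 bases before the start in these windows, counted from the first base of the motif. A match in letters is a description of the window and not a binding site.

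Camkv led the 12 genes with the lowest ratio. Camkv, a kinase-like calmodulin-binding protein of synapses (chromosome 9, 107935674 to 107949691), was at 45.7 CPM in vector-rich nuclei and 173 CPM in vector-free nuclei, a ratio of 0.264 (0.198 to 0.344), and was seen in 27 of 91 and 1318 of 1945 nuclei. Fgf13, an intracellular regulator of sodium channels, had a ratio of 0.317 (0.215 to 0.452), and Oprm1, the mu opioid receptor, one of 0.364 (0.301 to 0.436). Mast3, a microtubule-associated kinase, was at 60.7 CPM in vector-rich and 176 CPM in vector-free nuclei, and Iqgap2, a scaffold protein of the actin cytoskeleton, at 46.5 CPM and 132 CPM. Tox and Tshz2 are transcription factors that mark subsets of cortical neurons, with ratios of 0.366 and 0.284. The other 5 were Rnf112 (0.363), Aifm3 (0.371), 5530401A14Rik (0.346), the antisense RNA 4930473D10Rik (0.305) and the nuclear noncoding RNA Miat (0.332). In the wild-type library Camkv (128 CPM in both groups), Mast3, Miat, Fgf13 and Aifm3 had ratios between 0.935 and 1.09. Iqgap2 (1.46, 1.30 to 1.65) and Rnf112 (1.22, 1.04 to 1.42) lay above 1 there, and Tshz2 (0.489), Oprm1 (0.549) and 4930473D10Rik (0.539) lay below 1 in both libraries. Tshz2 was seen in 10 of 91 vector-rich nuclei (11.0%) and 192 of 1945 vector-free nuclei (9.87%), with up to 74 UMIs in a single vector-free nucleus. Its lower level therefore goes with no lower share of nuclei, and an unnamed cluster that Tshz2 leads held 0 vector-rich and 43 vector-free nuclei. 4930473D10Rik rested on 13 vector-rich nuclei with a UMI.

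The leading genes stood furthest from the vector-free level in nuclei with 3 or more vector UMIs. In nuclei with 1 and 2 vector UMIs the median over the 12 highest genes was 1.49 and 2.04 times the vector-free level. Nuclei with 3 to 9 vector UMIs (n = 55) stood at 11.2 times and nuclei with 10 or more (n = 36) at 9.80 times. Tgfb2 had 7.42, 12.4, 11.0, 149 and 393 CPM in nuclei with 0, 1, 2, 3 to 9 and 10 or more vector UMIs. In the same bins Adcyap1 had 7.61, 10.8, 13.7, 128 and 246 CPM, and Bdnf 30.2, 36.6, 43.9, 205 and 339.9 CPM. Olfr115 went another way, with 222 CPM at 3 to 9 vector UMIs and 118 CPM at 10 or more, and 7 of the 12 genes were higher in the last bin than in the one before. All 12 lowest genes were lower at 10 or more vector UMIs than at 3 to 9. Camkv had 173, 147, 154, 64.8 and 21.0 CPM over the 5 bins, and the median over the 12 was 0.983, 0.931, 0.387 and 0.234 times the vector-free level. The deepest bin is also that of most vector UMIs, with a median depth of 13971 UMIs.

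**Figure D2:**
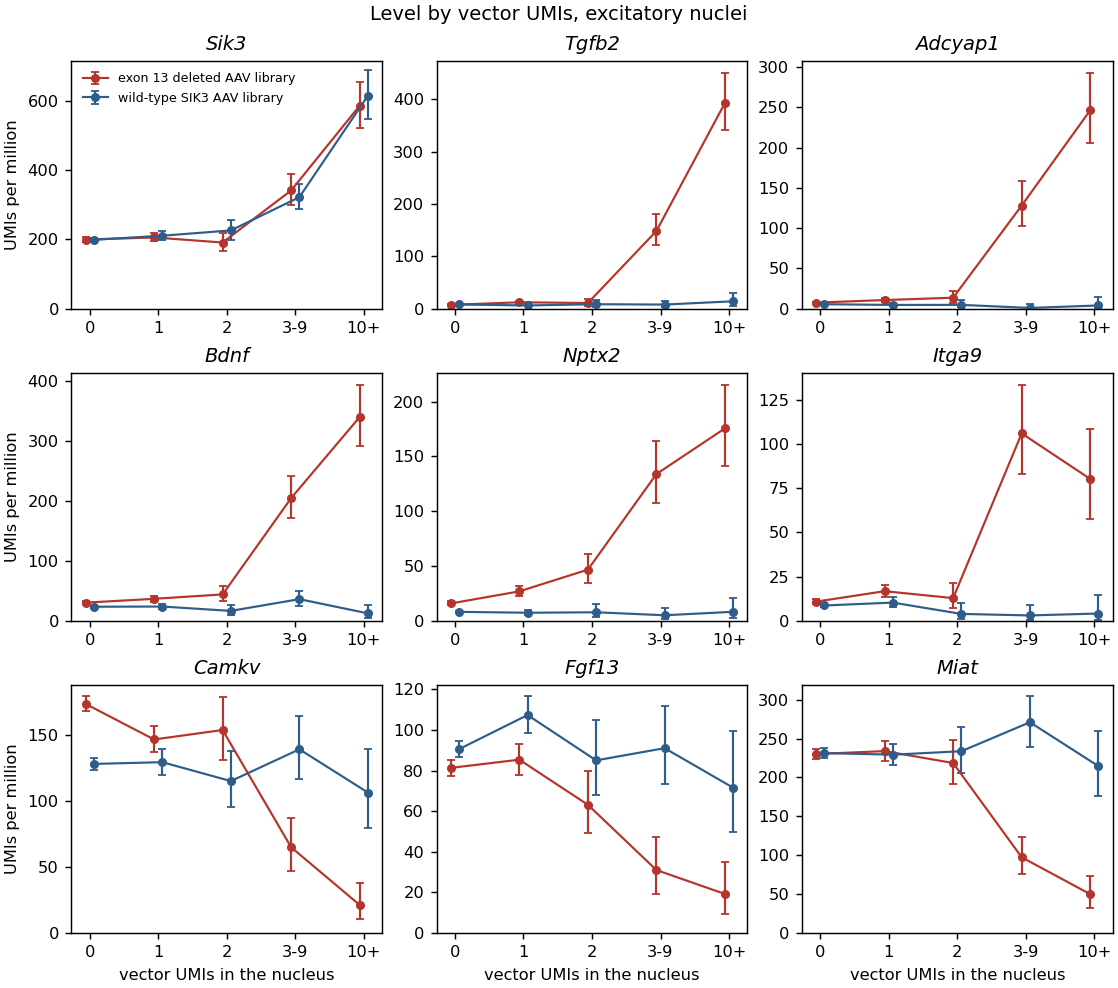
Level (CPM) of 9 genes in excitatory nuclei by the number of vector UMIs in the nucleus, with exact 95% Poisson intervals, in the exon 13 deleted library (red) and the wild-type library (blue). Sik3 climbs alike in both libraries, to 586 CPM and 615 CPM, while in the exon 13 deleted library Tgfb2, Adcyap1, Bdnf, Nptx2 and Itga9 are higher, and Camkv, Fgf13 and Miat lower, at 3 to 9 vector UMIs than at 0. Nptx2 is already higher at 1 (26.8 CPM) and 2 (46.6 CPM) than at 0 (15.8 CPM), and Itga9 is lower at 10 or more (80.2 CPM) than at 3 to 9 (106 CPM). All genes shown but Sik3 were chosen by their ratio at 3 or more vector UMIs against 0 in the exon 13 deleted library.

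At least 3 of the 12 highest genes were seen in 71 of 91 vector-rich nuclei (78.0%) and in 214 of 1945 vector-free nuclei (11.0%). After thinning every nucleus to 5000 UMIs and leaving out shallower ones, the shares were 52 of 77 (67.5%) and 68 of 1532 (4.44%). In the wild-type library 4 of 124 vector-rich nuclei (3.23%) had 3 or more. By vector count, 16 of 23 nuclei with 3 vector UMIs, 25 of 32 with 4 to 9 and 30 of 36 with 10 or more had at least 3 of the genes. None of the 12 was seen in 3 vector-rich nuclei. The genes were chosen for their level in these same nuclei, and Olfr111, Olfr112 and Olfr115, which may share reads, can make up the 3 alone, so these shares are a description.

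Few genes of the pathway in which SIK3 acts were past the fold. Of 26 listed members 25 reached a mean of 5 CPM, 1 was past 1.5-fold higher and 1 past it lower, and the median log2 ratio of CPM + 1 was 0.08, against 0.16 over all 12828 genes at that floor. Of those 12828 genes 20.9% were past the fold higher and 9.21% past it lower, and the counts of the lists below stand against these shares. In any list, a member can reach the floor through vector-rich nuclei alone. In the wild-type library the shares were 7.7% and 4.64% of 12190 genes. The member past the fold on the high side was Sik3 itself, and Mef2c, a transcription factor that class IIa histone deacetylases repress, was the one past it on the low side, at 583 CPM in vector-rich and 928 CPM in vector-free nuclei (ratio 0.628, 0.581 to 0.677). Hdac4 had 177 CPM against 125 CPM (1.42, 1.23 to 1.63) and Hdac5 19.1 CPM against 28.7 CPM (0.666, 0.419 to 1.01). The related kinase Sik2 had 68.2 CPM against 99.6 CPM (0.684), where the wild-type library had a ratio of 1.45. Crtc1 (0.873), Crtc3 (1.06) and Creb1 (1.07) had intervals that include 1. The list's median was -0.18 under TMM scaling. In the wild-type library 5 of the 25 members at the floor were past the fold higher and 0 lower, with a median of 0.22.

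Among delayed activity-regulated genes, which follow neuronal activity over hours and mostly encode secreted or synaptic proteins, 19 of 22 listed reached the floor, 9 were past 1.5-fold higher and 1 past it lower, with a median of 0.41, against 0.02 over 17 members in the wild-type library. Beside Bdnf and Nptx2, the granin Scg2 was at 192 CPM in vector-rich and 34.8 CPM in vector-free nuclei (5.51, 4.73 to 6.4), the neuropeptide precursor Vgf at 109.7 CPM and 32.0 CPM (3.43), and Sorcs3, a sorting receptor of synapses, at 768 CPM and 292 CPM (2.63). Homer1, a postsynaptic scaffold, was at 254 CPM and 372 CPM (0.684), with 0.690 in the wild-type library. Of 16 delayed genes with a listed promoter, 4 hold the full cAMP response element, and they do not move alike: Scg2 had a ratio of 5.51, Plk2 of 1.16 and Pcsk1, a prohormone convertase, of 0.406 (0.247 to 0.631), while Cartpt had 2 UMIs in vector-rich nuclei (0.89, 0.104 to 3.45).

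Rapid immediate early genes, the transcription factors and effectors switched on within minutes of activity, went both ways. Of 21 listed 17 reached the floor, 8 were past the fold higher and 4 lower, with a median of 0.51, against 0.46 in the wild-type library. Npas4 was at 66.5 CPM in vector-rich and 14.4 CPM in vector-free nuclei (4.60, 3.55 to 5.91), Jun at 52.4 CPM and 13.3 CPM (3.93) and Egr1 at 96.4 CPM and 58.2 CPM (1.66). Arc, whose protein acts at synapses, was at 9.97 CPM and 33.7 CPM (0.296, 0.152 to 0.520). Fos had 4 UMIs in all vector-rich nuclei (0.470, 0.126 to 1.23) and Nr4a2 had 2 (0.185, 0.0222 to 0.678). With the wild-type vector Npas4 had a ratio of 0.541 (0.245 to 1.04) and Arc one of 1.10. The cAMP and CREB target list likewise had 8 members past the fold higher and 5 lower of 21 that reached the floor, and its median of 0.30 was -0.06 with each nucleus weighted equally. It holds Atf3, a stress-induced transcription factor, at 81.5 CPM in vector-rich and 1.42 CPM in vector-free nuclei (57.2, 37.4 to 89.8), with 19.4% of its vector-rich UMIs in 1 nucleus, and Pde10a, a phosphodiesterase, at 513 CPM and 935 CPM (0.548). Of the MAPK feedback list 8 of 11 reached the floor and 5 were past the fold higher and 1 lower, with Spry2 at 2.52 (2.02 to 3.11) and Spred2 at 1.56, both inhibitors of Ras signalling.

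Genes of the p53 and DNA damage response were higher at every listed member that reached the floor. Of 24 listed 21 reached the floor, all 21 were higher and 19 past 1.5-fold, with a median of 1.87. In the wild-type library 16 reached it, 5 were past the fold higher and 0 lower, with a median of 0.38. In nuclei with 3 to 9 vector UMIs of the exon 13 deleted library the median was 0.97. A member can reach the floor through vector-rich nuclei alone, so these counts describe the list and support nothing further. The 3 others had few UMIs and ratios of 15.2 (Ckap2), 8.46 (Gtse1) and 1.19 (Gadd45a). Cdkn1a, the inhibitor of cyclin-dependent kinases, was at 54.0 CPM in vector-rich and 3.49 CPM in vector-free nuclei (15.5, 10.9 to 22.0) and was seen in 44 of 91 against 67 of 1945 nuclei. With the wild-type vector its ratio was 2.53 (1.11 to 5.14). Psrc1, a microtubule-binding protein, was at 76.5 CPM and 8.45 CPM (9.05), the p53 ubiquitin ligase Mdm2 at 102 CPM and 34.9 CPM (2.93), and the noncoding RNA Pvt1 at 294 CPM and 76.5 CPM (3.84). Plk2 (1.16) and Sesn1 (1.08) were the members at the floor nearest to 1. The summed list was at 490.3, 510.0, 480.2, 930.2 and 1856 CPM in nuclei with 0, 1, 2, 3 to 9 and 10 or more vector UMIs, and at 471.6, 472, 456, 480.1 and 656 CPM in the wild-type library.

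Interferon response genes showed a like pattern at lower levels. Of 24 listed 21 reached the floor, all 21 were higher and 20 past the fold, with a median of 1.91, while 8 reached it in the wild-type library (median 0.24). Here too a member can reach the floor through vector-rich nuclei alone. The 3 others, on 3 to 6 vector-rich UMIs, had ratios of 5.08 (Trim25), 4.61 (Gbp2) and 1.13 (Ifit2). Rnf213, a large ubiquitin ligase, was at 84.8 CPM in vector-rich and 16.2 CPM in vector-free nuclei (5.23, 4.15 to 6.55), and Isg15, a ubiquitin-like antiviral protein, at 34.9 CPM and 2.26 CPM (15.4). The summed list was at 145, 137, 146, 303 and 857 CPM over the 5 vector bins, and at 112, 102, 90.8, 131 and 143 CPM in the wild-type library. The interferon list was sparser than the p53 list, with 655 against 1604 UMIs in vector-rich nuclei, so their evenness across nuclei cannot be compared. Taking the 95th percentile of vector-free nuclei as the mark, 48 of 91 vector-rich nuclei were above it for the p53 list, 28 for the interferon list and 20 for both. Summed markers of microglia and of vascular cells were also higher in vector-rich nuclei. Those of astrocytes, oligodendrocytes and oligodendrocyte precursors had ratios of 0.998, 0.896 and 1.09. The microglial sum over 10 genes was at 313 CPM in vector-rich and 234 CPM in vector-free nuclei (1.34), with 8 of 10 higher. Endothelial markers were at 234 CPM and 124 CPM (9 of 9 higher) and pericyte, smooth muscle and fibroblast markers at 73.1 CPM and 34.7 CPM (7 of 10 higher), and none of these markers was at 0 in vector-rich nuclei. The part of these markers in the result was not tested beyond 1 alternative: without nuclei whose glial and vascular markers exceed 1% of their UMIs, 3 vector-rich and 127 vector-free, the list's median was 2.12. Over all 15 alternatives it lay between 0.997, with 3 to 9 vector UMIs, and 2.51, in nuclei with a high vector share.

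Genes of axon injury, cell death and protein folding stress were higher in part. Of 23 listed axon injury and regeneration genes 16 reached the floor, and 10 were past the fold higher and 2 lower. Beside Atf3 and Adcyap1, Ddit3, a transcription factor of the integrated stress response, was at 51.5 CPM in vector-rich and 7.57 CPM in vector-free nuclei (6.81), and Ecel1, a neuronal endopeptidase, at 22.4 CPM and 0.295 CPM on 27 and 6 UMIs. Gap43, a growth cone protein, was at 61.5 CPM and 97.1 CPM (0.633), and Klf7, a transcription factor of axon growth, at 60.7 CPM and 127 CPM (0.477). Of 18 listed apoptosis and neurodegeneration genes 12 reached the floor, and 9 were past the fold higher and 0 lower. Bcl2l11, a trigger of the mitochondrial death pathway, was at 52.4 CPM and 2.85 CPM (18.4, 12.7 to 26.7), Apaf1, the apoptosome core, at 83.9 CPM and 13.3 CPM (6.33), and Sarm1, an executioner of axon degeneration, at 49.0 CPM and 14.0 CPM (3.51). The anti-apoptotic Bcl2 had a ratio of 1.03. Of 23 listed unfolded protein response genes 21 reached the floor, and 8 were past the fold higher and 0 lower. Among them the kinase Eif2ak3 was at 3.07 and the chaperone Hspa5 at 1.38. In these lists as well a member such as Bcl2l11 can reach the floor through vector-rich nuclei alone, so the counts are a description. Bcl2l11 (3.67, 1.65 to 7.38), Ddit3 (2.09) and Jun (2.62) were also past 1.5-fold in the wild-type library, at lower ratios. The oligodendrocyte-marker nuclei described above held Atf3 at 8.08 CPM, Bcl2l11 at 10.8 CPM and Ddit3 at 17.5 CPM. They held Apaf1 at 32.3 CPM, Cdkn1a at 18.9 CPM and Rnf213 at 53.9 CPM. Each was above its level in vector-free nuclei. Other named genes were too, among them Jun (52.5 CPM against 13.3 CPM), Egr1 (67.4 against 58.2) and Eif2ak3 (29.6 against 27.7). Whether this is free RNA or expression in those nuclei was not tested, so the vector-free levels of these genes may likewise be background.

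**Figure D3:**
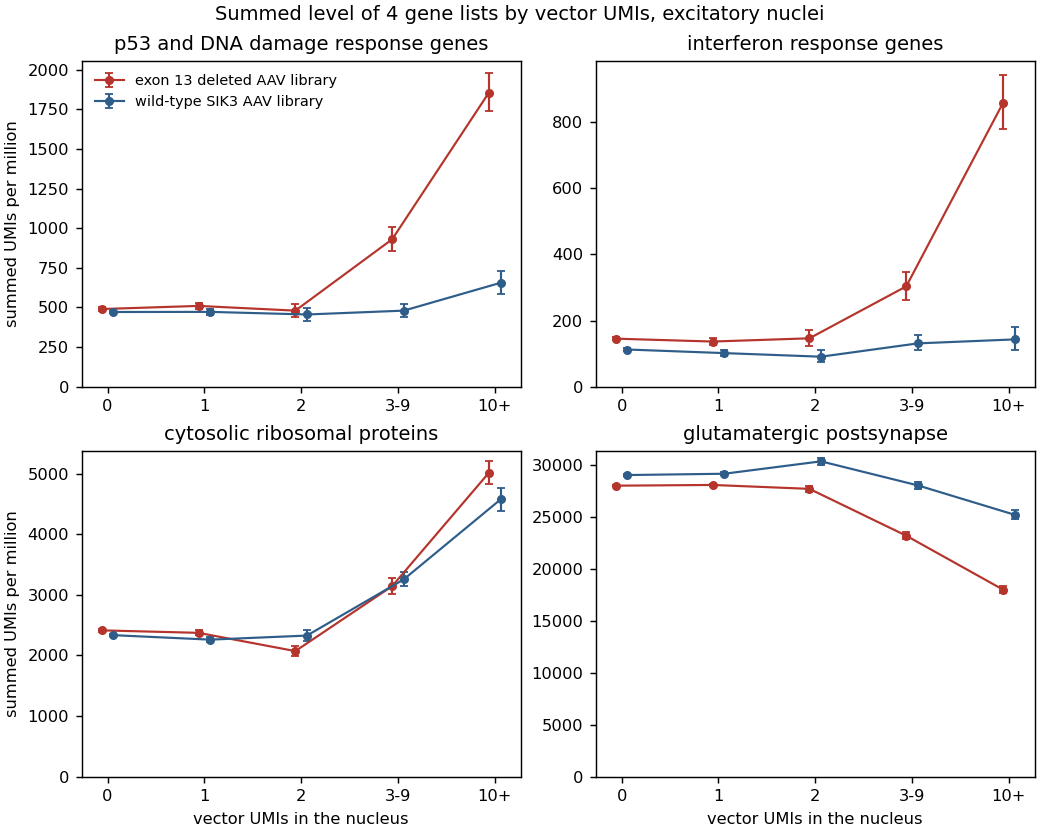
Summed level (CPM, exact 95% Poisson intervals) of 4 gene lists in excitatory nuclei by the number of vector UMIs, in the exon 13 deleted library (red) and the wild-type library (blue). The p53 and interferon lists reach 1856 CPM and 857 CPM at 10 or more vector UMIs in the exon 13 deleted library, ribosomal protein genes climb in both libraries, and the postsynaptic list drops further in the exon 13 deleted library.

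Genes of the glutamatergic postsynapse were lower as a group. All 40 listed members reached the floor, 35 were lower, 10 past the fold lower and 2 past it higher, with a median of -0.42, against -0.07 over 39 members in the wild-type library. Lrrtm4, an adhesion molecule of excitatory synapses, was at 1158 CPM in vector-rich and 2745 CPM in vector-free nuclei (0.422, 0.400 to 0.445), and the kainate receptor subunit Grik4 at 67.3 CPM and 156 CPM (0.433). Camk2a, the kinase of synaptic plasticity, was at 429.7 CPM and 718 CPM (0.599), and the AMPA receptor subunit Gria2 at 1410.5 CPM and 2026 CPM (0.696). Against this run, the AMPA receptor partner Cacng2 was at 193 CPM and 106 CPM (1.82, 1.58 to 2.09) and Homer3 at 17.5 CPM and 2.26 CPM (7.72). The summed list was at 27997, 28067, 27692, 23185.5 and 17998.5 CPM over the 5 vector bins. In the wild-type library it was at 29020.2, 29145, 30338.5, 28025 and 25199.9 CPM.

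Ion channel genes went both ways. Of 27 calcium, sodium and other cation channel genes 4 were past the fold higher and 7 lower, and of 33 potassium channel genes 3 and 9. The low-voltage-activated calcium channel Cacna1g was at 6.65 CPM in vector-rich and 33.9 CPM in vector-free nuclei (0.196, 0.0843 to 0.389), where the wild-type library had a ratio of 1.75. Kcnc1, a fast potassium channel, was at 131 CPM in vector-rich and 58.0 CPM in vector-free nuclei (2.26), and Kcnip2, an auxiliary subunit, at 13.3 CPM and 42.6 CPM (0.312). GABA-A receptor and inhibitory postsynapse genes had 3 of 17 past the fold higher and 1 lower, with Iqsec3, a scaffold of inhibitory synapses, at 1.97, and presynaptic release genes 5 and 3 of 38, with Cplx1, a complexin of vesicle fusion, at 2.16. The GABA-A list median of -0.08 was 0.08 in nuclei with 3 to 9 vector UMIs, and the presynaptic median of 0.16 was -0.10 under TMM scaling.

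Noncoding RNAs of the nucleus and clock genes were lower in part. Of 10 listed noncoding RNAs 4 were past the fold lower and 2 past it higher, with a median of -0.43. In the wild-type library 9 of the 10 were higher and 0 past the fold either way, with a median of 0.12. Meg3, an imprinted noncoding RNA among the most abundant neuronal transcripts, was at 2210.0 CPM in vector-rich and 5227 CPM in vector-free nuclei (0.423, 0.407 to 0.439), and its neighbour Rian at 249 CPM and 537 CPM (0.464). Malat1 was at 65505 CPM and 84086 CPM (0.779). With the wild-type vector Meg3 and Malat1 had ratios of 1.03 and 0.995. Of 19 clock genes 1 was past the fold higher (Nfil3, 5.04) and 3 lower, among them the output factor Hlf at 53.2 CPM and 119 CPM (0.447).

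Ribosomal protein genes, whose many pseudogenes can share reads, were higher with either vector. All 34 listed were higher in both libraries, 26 past the fold with the exon 13 deleted vector and 23 with the wild-type vector, with medians of 0.68 and 0.70. The first was 0.27 when standardised to the clusters described below. Rps19 was at 99.7 CPM in vector-rich and 43.7 CPM in vector-free nuclei (2.28) and had a ratio of 2.02 in the wild-type library. Nuclear-encoded oxidative phosphorylation genes also had like medians, 0.29 and 0.27, with 3 of 34 past the fold in the exon 13 deleted library and 1 in the wild-type library, and the first was -0.03 under that standardising. Mitochondrially encoded transcripts had medians of 0.34 and 0.49 with the exon 13 deleted and the wild-type vector, the first -0.02 under the same standardising. None of the 13 was past the fold with the exon 13 deleted vector, and 4 were past it higher with the wild-type vector. Heat shock genes had medians of 0.16 and 0.46, with the chaperone Hsp90aa1 at ratios of 1.63 and 1.59. Cholesterol synthesis genes had medians of 0.18 and -0.27 and pan-neuronal genes, among them Syn1 whose human promoter drives the vector, medians of -0.24 and 0.37. Under TMM scaling the heat shock and cholesterol medians of the exon 13 deleted library were -0.09 and -0.07.

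**Figure D4:**
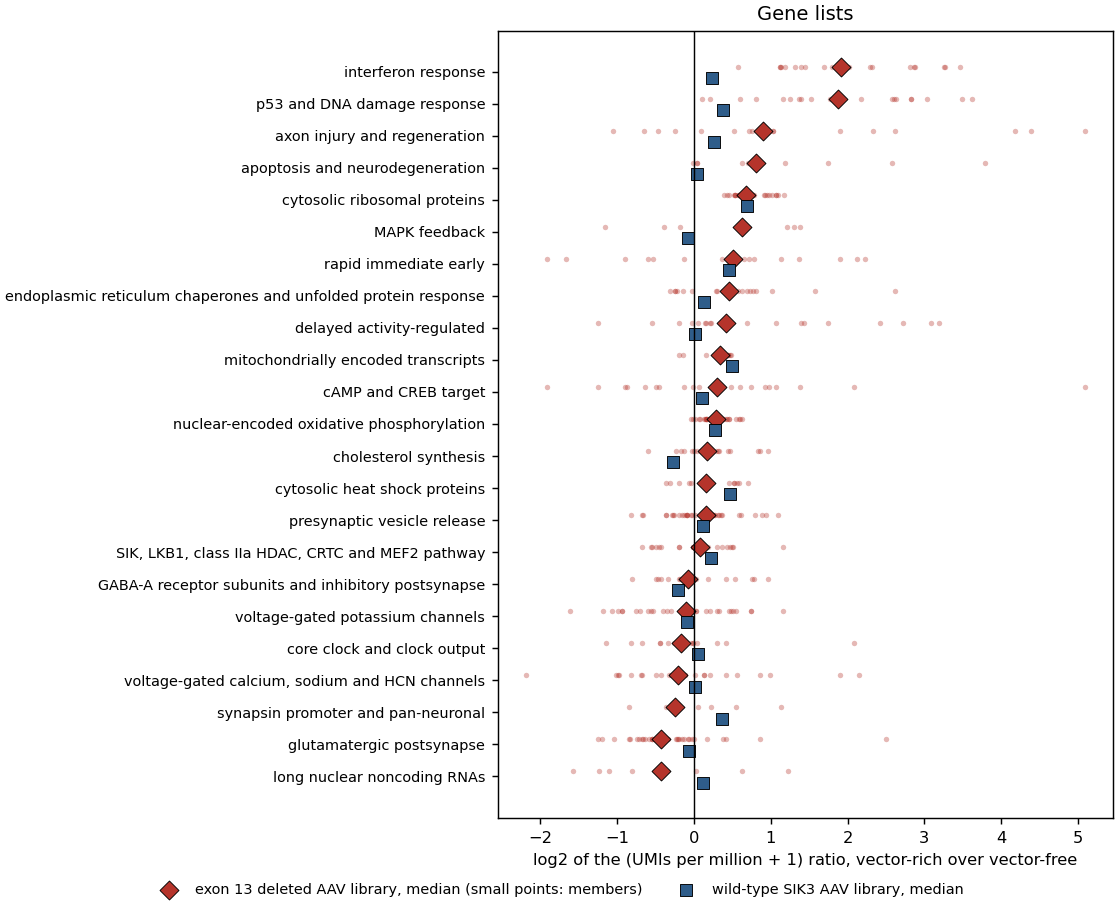
Log2 of the ratio of CPM + 1, vector-rich over vector-free, for 23 gene lists. Diamonds are list medians and small points the members at a mean of at least 5 CPM in the exon 13 deleted library, and squares are list medians in the wild-type library. Interferon and p53 lists have medians of 1.91 and 1.87 with the exon 13 deleted vector, ribosomal protein genes have close medians with either vector, and postsynaptic genes lie lowest but for nuclear noncoding RNAs.

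Vector-rich nuclei were placed among clusters built from vector-free nuclei alone, without the genes of the lists. Of the 91, 18.7% fell in layer 6 corticothalamic-like clusters (11.3 to 28.2, exact binomial interval), against 20.6% of vector-free nuclei, and 11.0% (5.40 to 19.3) in layer 2/3 intratelencephalic-like clusters, against 16.8%. Layer 6 intratelencephalic-like clusters took 13.2% and 8.12%, but 3.30% and 5.30% at a finer clustering, which turns the direction, and layer 5 extratelencephalic-like clusters 5.49% and 3.65%. Of the layer 4/5 intratelencephalic-like nuclei, 8.12% of vector-free nuclei, none was vector-rich (0 of 91, upper bound 3.97%). Clusters without a name took 51.6% and 41.4%. They include a cluster led by Il1rapl2 and Deptor with 22.0% of vector-rich and 12.2% of vector-free nuclei, and a shallow one (median 2038 UMIs), led by haemoglobin genes (Hba-a2, Hbb-bt, Hbb-bs, Hba-a1) with mt-Atp6 and Rpl8 among its first 10, with 18.7% and 10%. Others were led by genes that do not mark cortical excitatory neurons. One led by Drd2 and Adora2a, which mark striatal neurons, held 2 vector-rich and 90 vector-free nuclei, and one led by Ly86 and Runx1, immune genes, 4 and 76. Those with Slc1a3 and Grin2c, with Mag and Aspa, with Flt1 and Slco1a4, with Adarb2 and Erbb4 and with Pdgfra and Vcan among their leading genes, which mark glia, vessels and inhibitory neurons, held 0 and 48, 0 and 34, 2 and 31, 1 and 29, and 1 and 22. Some nuclei that passed the excitatory rule thus lie in clusters that go against it. Vector-rich nuclei lay further from their nearest vector-free neighbours than these did from each other, with a median distance of 9.69 against 6.00, so their placing is less sure.

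The leading genes were also set side by side within the groups, where many rest on few UMIs. In the 10 vector-rich nuclei placed as layer 2/3 intratelencephalic-like, all 12 highest genes were past the fold higher and 11 of the 12 lowest past it lower. The counts were 11 and 11 in 17 layer 6 corticothalamic-like nuclei, 12 and 11 in 12 layer 6 intratelencephalic-like nuclei, and 12 and 12 in 47 unnamed nuclei. The median ratio over the 12 highest genes was 37.1, 11.9, 4.14 and 8.78 in these 4 groups. The highest gene not past the fold in layer 6 corticothalamic-like nuclei was Olfr112, with 0 UMIs in vector-rich and 1 in vector-free nuclei. Olfr111 had 1 UMI in layer 6 intratelencephalic-like vector-rich nuclei (1.61, 0.0357 to 12.5), and Tshz2 had 0 in layer 2/3 intratelencephalic-like ones, with an interval of 0 to 21.0, so these counts are a description and show no direction for single genes. Olfr112 and Olfr115 are among the 10 leading genes of the small layer 6b-like cluster of vector-free nuclei, in which 0 of 91 vector-rich nuclei were placed. At a finer clustering Olfr115 was also among those of an unnamed cluster with 15.4% of vector-rich and 5.45% of vector-free nuclei. Another unnamed cluster, with 12.1% and 3.24%, had both Olfr115 and Gm32647 among them. Gm32647 was also among those of a layer 2/3 intratelencephalic-like cluster with 3.30% and 5.81%. The part of this finer make-up in the ratios of these genes was not tested. Likely doublets, the top 5% by Scrublet score, made up 9.89% of vector-rich and 6.22% of vector-free nuclei.

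**Figure D5:**
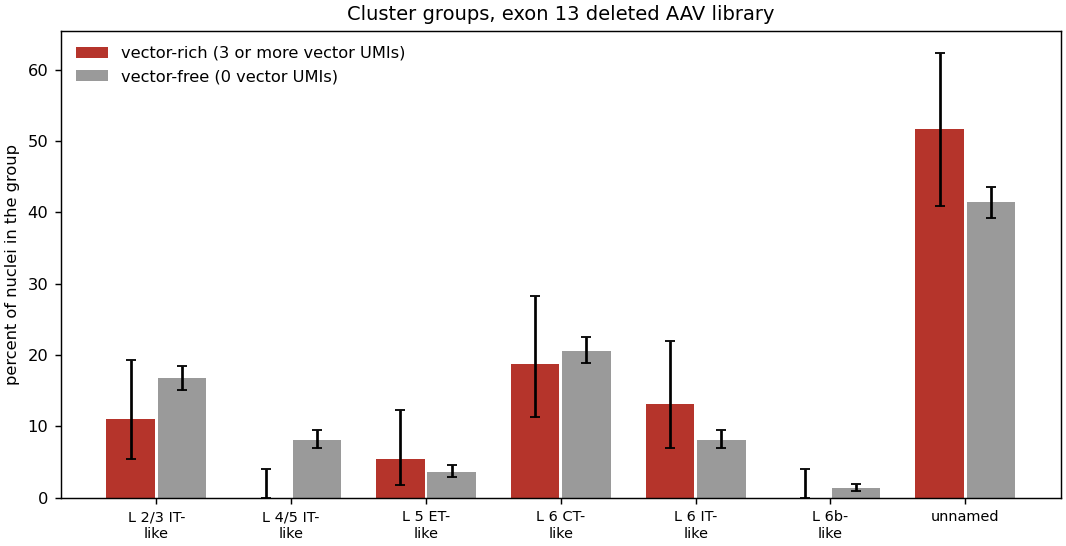
Share of vector-rich (red, n = 91) and vector-free (grey, n = 1945) excitatory nuclei of the exon 13 deleted library in each group of clusters, with exact 95% binomial intervals (IT, intratelencephalic; ET, extratelencephalic; CT, corticothalamic). The intervals overlap in the layer 2/3, 5 ET, 6 CT and 6 IT groups, and no vector-rich nucleus was placed in the layer 4/5 IT group.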

How the data were processed

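Nuclei of primary motor cortex were profiled with droplet-based 3' single-nucleus RNA-seq, and the deposited matrices hold UMI counts per gene and barcode. The submitters' processing notes name Cell Ranger 6.1.2 and the mm10 build for the counts that the authors deposited. How strand and intronic reads were treated is not given in the sources used here, so overlapping and antisense genes may share reads. The 4 libraries were read with scanpy 1.11.5 and scipy 1.17.1 in Python 3.11.15. Beyond the filters on genes, mitochondrial UMIs and markers, no nucleus was left out as a doublet in the values reported, and Scrublet scores entered as an alternative.

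UMIs were summed per group and scaled to CPM without the vector feature. Gene-list values are log2 ratios of CPM + 1 over members averaging 5 CPM or more, and a gene counts as past the fold at 1.5-fold (mean of at least 20 CPM over the pair of groups outside the lists). Intervals are exact 95% Poisson or Clopper-Pearson intervals. The named genes are Sik3, the 12 highest and 12 lowest ratios at a mean of at least 50 CPM that are also past the fold after standardising to depth, and of each of 23 lists the 2 of highest level and the 2 of largest ratio at 20 CPM. Other named genes were chosen after their values were seen. The members and the lists were chosen with earlier results of these data known. Positions are mm10 (GENCODE vM21), and promoter sequences are from RefSeq (GRCm38.p6). Vector-free nuclei were clustered with leidenalg 0.10.2 on 2000 variable genes without list genes and 30 principal components, and vector-rich nuclei were placed by their 15 nearest vector-free neighbours. Clusters were named from marker lists. TMM factors came from edgeR 4.0.16, used for scaling and for no test. The ratio and its interval were tested on simulated data. Values were recomputed under 15 alternatives. Some genes are not reported here.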

Additional observations from a re-analysis of the deposited data

Results flagged for a closer look

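Some genes lay on opposite sides of 1 in the exon 13 deleted and the wild-type library, with intervals that exclude 1 in both. This difference was not tested, since each vector has 1 library. Olfr115 and Olfr112 had ratios of 12.8 and 12.8, and Olfr111 one of 10.1, with the exon 13 deleted vector, against 0, 0 and 0 with the wild-type vector, where no UMI was seen in vector-rich nuclei. Itga9 had ratios of 8.77 and 0.389, and Krt20 ratios of 6.81 and 0.536. In the other direction Iqgap2 had ratios of 0.354 and 1.46, and Rnf112 ratios of 0.363 and 1.22.

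Vector RNA also appeared in nuclei outside the excitatory rule. In the exon 13 deleted library 47 nuclei with 10 or more vector UMIs lay outside the excitatory rule and held 2086 vector UMIs, at a median depth of 6220 UMIs, against 0 vector UMIs in the libraries without a virus. An excitatory rule on 7 other genes, tried as an alternative, compared 139 vector-rich nuclei, of which 53 lay outside the first rule and 65 had 10 or more vector UMIs.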

How the results depend on the processing

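All 24 leading genes stayed past the fold in the same direction under the 15 alternatives, of which 14 were planned and 1, an excitatory rule on 7 other genes, was chosen after seeing the data (1422 genes higher and 678 lower, from 139 vector-rich and 2696 vector-free nuclei). They were chosen as extreme and past the fold after depth standardising, and a CPM floor cannot move a ratio, so this says little of stability. Counts of genes past the fold moved most. With 10 or more vector UMIs they were 2226 higher and 954 lower, in nuclei whose vector share was above the median 2352 and 1003, under TMM 606 and 1277, at a floor of 50 CPM 552 and 297, and at 5 CPM 2879 and 1286. Layer 6 intratelencephalic-like clusters held 3.30% of vector-rich and 5.30% of vector-free nuclei at a finer clustering, which turns the direction. Igf2 turned round, with a ratio of 0 at 10 or more vector UMIs, 0 at a high vector share, 0.556 without likely doublets and 0.451 without its top nucleus, and Vcan had 0.778 without likely doublets; the cause was not tested. Of the gene ratios under alternatives, 1400 stayed within their interval, 530 moved and 5 turned round. No paired analysis was possible because each group has 1 library. Depth limits genes under 2.49 CPM in vector-rich nuclei.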

Other observations

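Genes at least 3-fold higher in vector-rich nuclei lay beside one another in places. Of 159 such genes, 25 (15.7%) formed 11 groups with no more than 100 kb between neighbours. The group on chromosome 17 held Olfr111, Olfr112, Olfr113 and Olfr115, with ratios of 10.1 to 13.6. A group on chromosome 11 held the keratins Krt12 and Krt20, and another the immune receptors Cd48 and Slamf1, at 15.3 and 15.4. How often such groups occur among genes of like level was not tested, and reads that run from one gene into the next cannot be told apart from separate transcripts here.

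Further genes averaging under 50 CPM had high ratios and were chosen after their values were seen. Fbln5, a matrix protein of elastic fibres, was at 44.9 CPM in vector-rich nuclei on 54 UMIs and at 0.884 CPM in vector-free nuclei on 18 UMIs, a ratio of 50.8 (29.3 to 92.0). Mybpc1, a myosin-binding protein of muscle, was at 72.3 CPM in vector-rich and 2.55 CPM in vector-free nuclei (28.3, 19.8 to 40.7), Myo3b, a myosin with a kinase domain, at 85.6 CPM and 3.10 CPM (27.7), and Igf2bp2, an RNA-binding protein, at 58.2 CPM and 2.75 CPM (21.1).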
